A study of Mus musculus with 16 samples.

Results

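The thymocyte and T cell genes described here were 10 of the 54532 genes measured in mouse aorta, picked by symbol: Dntt, Rag1, Rag2, Cd3d, Cd3e, Cd4, Cd8a, Cd8b1, Lck and Themis. They were picked because Dntt had a very low level in the 5/6 Nx-HPi-Lp aortas against Sham, so every value of that contrast, the fitted folds and calls included, is given for these genes as a description and supports nothing. All 10 symbols were found, each with 1 gene identifier. The aortas came from male C57BL/6J mice operated on at 12 weeks of age, with 4 mice in each of 4 groups and 1 RNA-seq library per mouse. 5/6 Nx stands for 5/6 nephrectomy, the removal or ligation of most kidney tissue, and Sham mice had surgery that left the kidneys in place. Food with 2% phosphorus and 2.5% protein (HPi-Lp) was given to the Sham mice and to 1 nephrectomy group, 5/6 Nx-HPi-Lp. The 5/6 Nx-HPi-Hp group ate 2% phosphorus with 18% protein. The 5/6 Nx-LPi-Lp group ate 0.3% phosphorus with 2.5% protein. Sham mice thus shared the high-phosphorus, low-protein diet, and there was no Sham group on the other diets. The diets lasted 30 days by the labels and 4 weeks by the study's methods, all mice received buprenorphine before surgery, and the whole frozen aorta was ground, so that any blood, fat or lymphoid tissue left on it was also sequenced.

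T cells mature in the thymus from progenitors that do not yet carry a T cell receptor. Immature thymocytes cut and rejoin their receptor genes with the RAG1 and RAG2 recombinase, while terminal deoxynucleotidyl transferase, the product of Dntt, adds untemplated nucleotides at the joints. Dntt, Rag1 and Rag2 are then shut off as the cells mature, whereas the CD3 chains, the coreceptors CD4 and CD8, the kinase LCK and the signaling protein THEMIS are kept by many mature T cells. Immature B cells of the bone marrow also use Dntt, Rag1 and Rag2.

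Library totals ranged from 13659525 to 57276915 counts. The Sham libraries held 20795568 to 24204348 counts, and the 2 deepest libraries were 5/6 Nx-HPi-Lp replicates 2 and 3, with 57276915 and 46499243. A count of 0 is read here against a floor of 3 counts, which was 0.0524 CPM (counts scaled to an equal library size) in 5/6 Nx-HPi-Lp replicate 2 and at most 0.245 CPM, in 5/6 Nx-HPi-Hp replicate 2. Such floors and the intervals below cover counting error only. The smooth muscle marker Myh11 was measured at 5943 to 6730 CPM in the Sham aortas and at 477 to 1159 CPM in the 5/6 Nx-HPi-Lp aortas, so the marker of the tissue itself moved with the groups too. Over the 6 smooth muscle markers the summed level was 21665 to 25737 CPM in Sham and 2223 to 5034 CPM in 5/6 Nx-HPi-Lp, and over the 5 macrophage markers it was 135 to 222 and 478 to 1752 CPM. Markers of tissue that can stay attached to an aorta moved as well. The 4 lymph node stroma markers summed to 0.830 to 4.06 CPM in Sham and 44.8 to 68.7 in 5/6 Nx-HPi-Lp. They summed to 1.20 to 6.83 CPM in 5/6 Nx-HPi-Hp and 2.19 to 6.65 in 5/6 Nx-LPi-Lp. Of these 4 genes 3 had enough counts to be tested against Sham. In 5/6 Nx-HPi-Lp 2 of the 3 were higher (adjusted p at most 0.05 and at least 2-fold, edgeR), as were 15% of all genes. Against each other nephrectomy group 1 of 2 tested genes was, so the sums need not stand for all 4. The symbols Ccl21a and Ccl19 stand for 2 genes each, of which 1 was used. The 4 adipocyte markers summed to 118 to 393 CPM in Sham and 941 to 1610 in 5/6 Nx-HPi-Lp. Their sums were as high in 5/6 Nx-HPi-Hp (341 to 2315 CPM) and 5/6 Nx-LPi-Lp (766 to 2271 CPM). Lung epithelium markers summed to 5.45 to 66.9 CPM in 5/6 Nx-HPi-Lp and to at most 2.13 CPM in the other groups. Only 1 of these 4 genes had enough counts to be tested, so that sum need not stand for all of them. Heart muscle markers reached 5346 CPM in 5/6 Nx-LPi-Lp replicate 2 and at most 29.7 CPM in Sham. The part of these shifts in the T cell gene values was not tested.

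The promoters of Dntt, Rag1 and Rag2 are printed because these 3 genes set the immature cells apart and had their lowest levels together. Each runs from 250 bases before to 50 bases after the RefSeq start site on GRCm38.p6, and capitals mark matches to 5 short motifs searched on both strands. Promoters were found for 8 of the 10 genes, in 10 entries, and Cd4 and Cd8b1 had none.
Dntt, chr19:41029025-41029324, plus strand: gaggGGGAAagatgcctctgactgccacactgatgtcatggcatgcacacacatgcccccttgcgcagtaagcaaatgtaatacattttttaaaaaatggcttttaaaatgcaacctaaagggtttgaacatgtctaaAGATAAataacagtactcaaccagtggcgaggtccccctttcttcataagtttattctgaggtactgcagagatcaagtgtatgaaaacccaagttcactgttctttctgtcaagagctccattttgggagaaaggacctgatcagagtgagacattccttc
Rag1, chr2:101649483-101649782, minus strand: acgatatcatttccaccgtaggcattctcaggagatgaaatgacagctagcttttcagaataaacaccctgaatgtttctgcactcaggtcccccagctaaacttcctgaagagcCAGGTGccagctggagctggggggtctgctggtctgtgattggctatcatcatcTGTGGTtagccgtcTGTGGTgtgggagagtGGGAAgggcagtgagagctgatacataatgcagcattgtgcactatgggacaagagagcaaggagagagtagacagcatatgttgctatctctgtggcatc
Rag2, chr2:101624462-101624761, plus strand: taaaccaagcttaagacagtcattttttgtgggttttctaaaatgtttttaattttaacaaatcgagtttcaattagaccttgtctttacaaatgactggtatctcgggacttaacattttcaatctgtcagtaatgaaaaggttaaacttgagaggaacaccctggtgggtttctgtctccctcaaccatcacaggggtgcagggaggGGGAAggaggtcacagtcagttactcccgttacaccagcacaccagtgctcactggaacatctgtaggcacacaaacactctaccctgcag
The E-box was searched as CAGGTG, the Runx site as TGTGGT, the core of Ikaros sites as GGGAA, the GATA site as AGATAA and the box near many start sites as TATAAA. Positions are counted from the start site. In the Dntt promoter an Ikaros core began at -246 and a GATA site at -112. The Rag1 promoter held an E-box at -135, Runx sites at -81 and at -67 and an Ikaros core at -51, and the Rag2 promoter held an Ikaros core alone, at -41. The last of the motifs was in none of the 10 entries. Among all 32851 promoter entries of the same length, 62.7% held the Ikaros core, 20.2% the E-box, 16.8% the Runx site, 13.6% the TATA motif and 11.2% the GATA site, so matches to the Ikaros core are common in any promoter. None of the printed matches overlapped another.

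Dntt spans chr19:41029275-41059523 on the plus strand of mm10 (ENSMUSG00000025014). Its level in the Sham aortas was 1.93, 5.81, 1.71 and 10.2 CPM in replicates 1 to 4. In the 5/6 Nx-HPi-Lp aortas it was 0.315 CPM in replicate 1, from 5 counts, and 0 in the other 3 libraries, among them both of the deepest. The Sham and 5/6 Nx-HPi-Lp values did not overlap. In the 5/6 Nx-HPi-Hp aortas Dntt stood at 4.20, 2.20, 0 and 2.46 CPM, and in the 5/6 Nx-LPi-Lp aortas at 3.36, 1.00, 4.66 and 0 CPM. Of the former group 3 libraries lay inside the Sham range, of the latter 2, and each group had 1 library at 0. The group means were 4.91 ± 4.00 CPM in Sham, 0.0788 ± 0.158 in 5/6 Nx-HPi-Lp, 2.22 ± 1.72 in 5/6 Nx-HPi-Hp and 2.26 ± 2.13 in 5/6 Nx-LPi-Lp (SD, n = 4). Fewer cells of a type and less RNA per cell cannot be told apart in such bulk samples.

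Rag1 lies at chr2:101638282-101649501 on the minus strand (ENSMUSG00000061311). It was measured at 2.12, 8.70, 2.30 and 13.9 CPM in Sham and at 0.504, 0, 0.132 and 0 CPM in 5/6 Nx-HPi-Lp, again without overlap. The 5/6 Nx-HPi-Hp libraries held 6.51, 2.69, 0.225 and 1.26 CPM, and the 5/6 Nx-LPi-Lp libraries 5.79, 1.44, 4.15 and 0 CPM. Replicate 3 of the former and replicate 4 of the latter, which had no Dntt count, were thus also their groups' lowest for Rag1. Rag2, its partner in the recombinase, lies beside it at chr2:101624718-101632529 on the plus strand (ENSMUSG00000032864) and had the lowest Sham mean of the 3, also per length. Its Sham values were 0.154, 0.787, 0.180 and 1.66 CPM, from 4, 18, 4 and 42 counts. All 8 libraries of both high-phosphorus nephrectomy groups had no Rag2 count, and the 5/6 Nx-LPi-Lp libraries had 12, 0, 9 and 0. Against the floor of 3 counts per library, the mean Rag2 level was at least 5.55-fold lower in 5/6 Nx-HPi-Lp and at least 3.50-fold lower in 5/6 Nx-HPi-Hp than in Sham. Both Rag genes overlap the protein-coding gene B230118H07Rik, which runs on the minus strand. The strand setting of the counting is not given in the sources used here, so reads of the overlapping parts could be split or dropped.

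**Figure D1:**
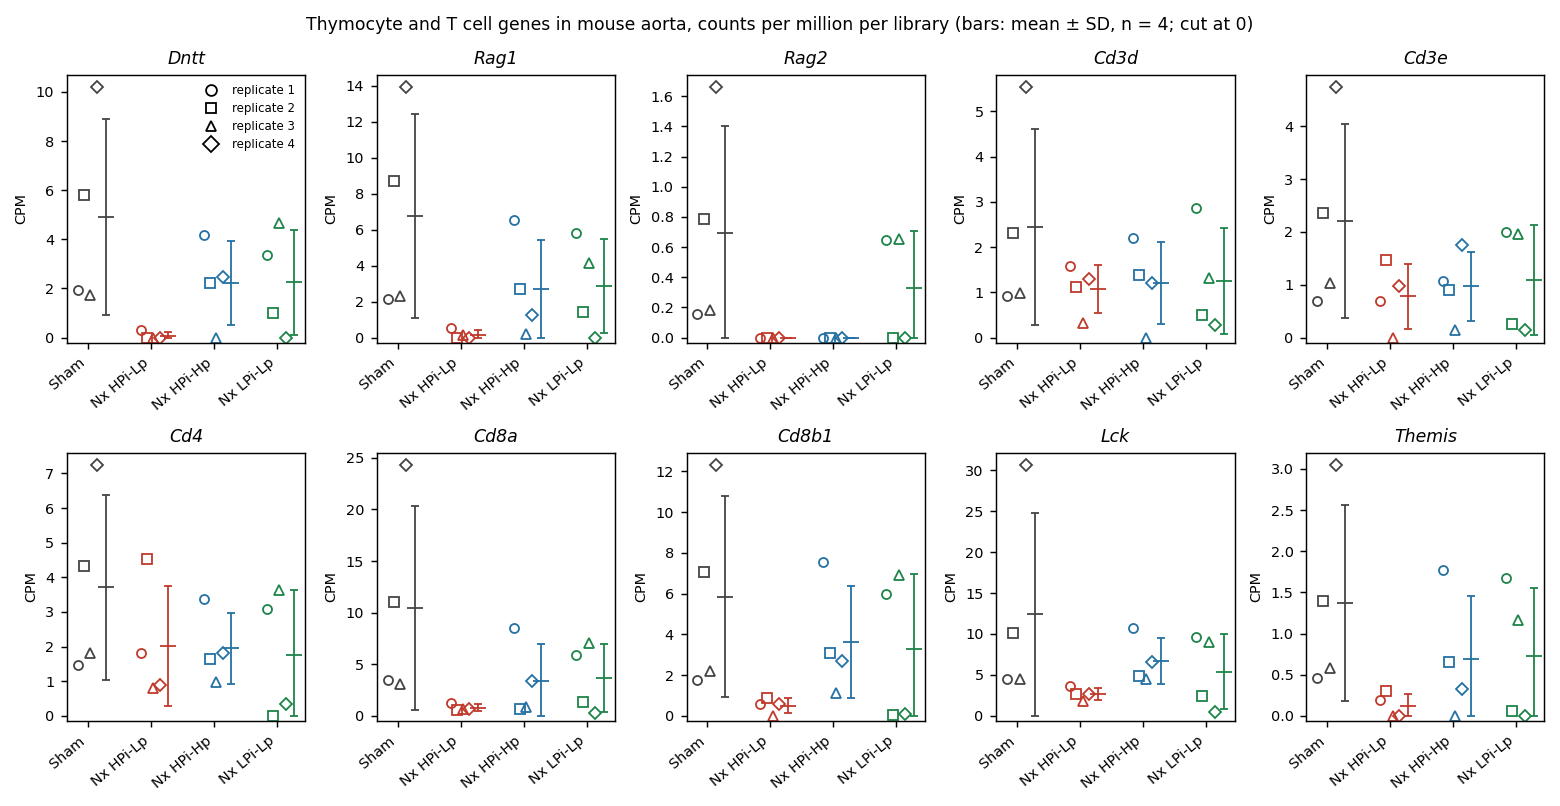
CPM (y axis, linear) of the 10 genes in each library, by group on the x axis, with the replicate shown by the symbol and the group mean ± SD (n = 4, cut at 0) beside it. Sham replicate 4 is the highest Sham library in all 10 panels, and the 5/6 Nx-HPi-Lp libraries sit at or close to 0 for Dntt, Rag1 and Rag2 but overlap with the other groups for Cd3d, Cd3e and Cd4.

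CD3 delta and epsilon are invariant chains of the T cell receptor complex and mark T cells as a whole. Cd3d (chr9:44981786-44987339, plus strand, ENSMUSG00000032094) was measured at 0.925, 2.32, 0.992 and 5.53 CPM in Sham and at 1.58, 1.12, 0.331 and 1.29 CPM in 5/6 Nx-HPi-Lp. Cd3e (chr9:44998740-45009627, minus strand, ENSMUSG00000032093) stood at 0.694, 2.36, 1.04 and 4.74 CPM in Sham and at 0.693, 1.47, 0 and 0.968 CPM in 5/6 Nx-HPi-Lp. For both chains the 2 groups overlapped, which they did not for Dntt and Rag1. The 5/6 Nx-HPi-Hp libraries ranged from 0 to 2.21 CPM for Cd3d and from 0.150 to 1.75 CPM for Cd3e, and the 5/6 Nx-LPi-Lp libraries from 0.286 to 2.87 and from 0.143 to 2.00 CPM. Cd3e overlaps an antisense gene, Gm48719, and another transcript, Gm48720, so its counts are uncertain to that extent.

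The coreceptors went apart. Cd4 (chr6:124864692-124888221, minus strand, ENSMUSG00000023274), carried by helper T cells and also by some macrophages, was measured at 1.46, 4.33, 1.80 and 7.23 CPM in Sham and at 1.83, 4.54, 0.795 and 0.903 CPM in 5/6 Nx-HPi-Lp. The highest 5/6 Nx-HPi-Lp library was thus above 3 of the 4 Sham libraries. Cd8a (chr6:71373427-71379173, plus strand, ENSMUSG00000053977), the alpha chain of CD8, stood at 3.43, 11.0, 3.11 and 24.3 CPM in Sham and at 1.26, 0.593, 0.640 and 0.710 CPM in 5/6 Nx-HPi-Lp, with no overlap. Cd8b1 (chr6:71322788-71337494, plus strand, ENSMUSG00000053044), the beta chain, stood at 1.77, 7.08, 2.21 and 12.3 CPM in Sham and at 0.567, 0.872, 0 and 0.581 CPM in 5/6 Nx-HPi-Lp, also with no overlap. In the 5/6 Nx-HPi-Hp aortas Cd8b1 was at 7.53, 3.10, 1.12 and 2.68 CPM, so all 4 lay above every 5/6 Nx-HPi-Lp library, while Cd8a, at 8.50, 0.653, 0.900 and 3.34 CPM, overlapped with them. In the 5/6 Nx-LPi-Lp aortas the coreceptors were high in replicates 1 and 3 and low in replicates 2 and 4, as Cd8b1 shows with 5.96, 0.0628, 6.92 and 0.0952 CPM.

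Lck (chr4:129548344-129573641, minus strand, ENSMUSG00000000409), the kinase that binds both coreceptors and starts receptor signaling, had the highest Sham mean of the 10 genes per length, at 4.09 FPKM. Its Sham values were 4.47, 10.1, 4.56 and 30.6 CPM and its 5/6 Nx-HPi-Lp values 3.59, 2.63, 1.79 and 2.64 CPM, without overlap but with a gap of less than 1 CPM. The 5/6 Nx-HPi-Hp libraries held 10.7, 4.90, 4.50 and 6.56 CPM, all above the 5/6 Nx-HPi-Lp libraries, and the 5/6 Nx-LPi-Lp libraries 9.59, 2.38, 9.03 and 0.524 CPM, which straddled them. Themis (chr10:28668360-28883818, plus strand, ENSMUSG00000049109), which is needed for thymocytes to pass positive selection, was at 0.462, 1.40, 0.586 and 3.04 CPM in Sham and at 0.189, 0.297, 0 and 0 CPM in 5/6 Nx-HPi-Lp. The other groups ranged from 0 to 1.77 CPM and from 0 to 1.68 CPM.

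The 10 genes varied as much between mice of a group as between most groups. Sham replicate 4 was the highest Sham library for 10 of 10 genes and replicate 1 the lowest for 8. Summed over the 10 genes, the Sham libraries held 17.4, 53.9, 18.5 and 114 CPM. The 5/6 Nx-HPi-Lp libraries held 10.5, 11.5, 3.69 and 7.10 CPM, all below Sham, while the 5/6 Nx-HPi-Hp libraries held 45.9, 18.1, 7.87 and 21.4 CPM and the 5/6 Nx-LPi-Lp libraries 40.8, 7.09, 40.6 and 1.67 CPM. In the 5/6 Nx-HPi-Hp group replicate 1 was highest for 8 genes, and in the 5/6 Nx-LPi-Lp group replicates 1 and 3 were highest for 5 genes each. Sham had the highest mean of the 4 groups for all 10 genes. Between groups next to each other in the order of means, the gap was larger than the larger SD in a single case, Dntt, where the mean of 5/6 Nx-HPi-Hp stood above that of 5/6 Nx-HPi-Lp.

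Per length, the immature genes were set against the CD3 chains, which for 5/6 Nx-HPi-Lp against Sham is a description only. Dntt, on which the genes were picked, gave 2.22 of the mean 3.40 FPKM of the immature genes in Sham. The sum of the Dntt, Rag1 and Rag2 levels in FPKM, which divides by gene length, was 1.87, 2.31, 1.51 and 1.75 times the sum of the Cd3d and Cd3e levels in the Sham libraries. The same ratio was 0.216, 0, 0.110 and 0 in 5/6 Nx-HPi-Lp, below every Sham library. It was 2.00, 1.47, 0.926 and 1.23 in 5/6 Nx-HPi-Hp, and 1.28, 2.04, 2.50 and 0 in 5/6 Nx-LPi-Lp, where the 0 came from the library with the fewest counts of these genes. The Cd8a level was 2.60, 2.82, 1.91 and 3.72 times the Cd4 level in Sham and 0.765, 0.145, 0.893 and 0.871 times in 5/6 Nx-HPi-Lp, so that Cd4 was the higher of both coreceptors in all 4 libraries of that group. In 5/6 Nx-HPi-Hp the ratio was 2.78, 0.443, 1.02 and 2.05, which overlapped with both. In 5/6 Nx-LPi-Lp it was 2.10, 2.15 and 0.95 in replicates 1, 3 and 4, and it had no value in replicate 2, which had no Cd4 count.

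The counts behind these ratios show where the depth limits them. Dntt, Rag1 and Rag2 made up 109 of the 151 counts of the 5 genes in Sham replicate 1, or 72.2% (exact 95% binomial interval 64.3 to 79.2), and 67.4% to 76.6% over the 4 Sham libraries. In 5/6 Nx-HPi-Lp replicate 2 they made up 0 of 148 counts, which allows a share of up to 2.03% by the floor of 3 counts and 2.46% by the exact interval. In replicate 4 they made up 0 of 35, which allows up to 8.57% and 10%. Replicates 1 and 3 of that group had shares of 26.5% (14.9 to 41.1, 13 of 49 counts) and 28.6% (11.3 to 52.2, 6 of 21 counts). The Dntt counts on which the genes were picked are part of these shares. The 5/6 Nx-HPi-Hp shares were 55.7% to 76.5%, although replicate 3 had 3 of 5 counts and an interval from 14.7% to 94.7%. Of the 5/6 Nx-LPi-Lp libraries 3 had shares of 66.8% to 76.5%, and replicate 4 had 0 of 9 counts, which allows up to 33.3% by the floor and 33.6% by the interval.

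The fitted folds describe the same levels in one scale. In 5/6 Nx-HPi-Lp against Sham, 9 of the 10 genes passed the count filter, and Rag2 did not. Called means here that the adjusted p did not exceed 0.05 and that the change was at least 2-fold. Among all 16513 genes tested, 7.18% were called lower and 15% higher, and 24.2% were lower in every 5/6 Nx-HPi-Lp library than in any Sham library. The log2 fold changes were -6.56 ± 1.24 (SE) for Dntt, -5.65 ± 1.13 for Rag1, -3.70 ± 0.70 for Cd8a, -3.49 ± 0.97 for Cd8b1, -3.29 ± 1.06 for Themis and -2.19 ± 0.61 for Lck. Those were the 6 genes called, all lower, and the 6 tested genes that did not overlap between the groups. The folds were -1.45 ± 1.00 for Cd3e, -1.16 ± 0.68 for Cd3d and -0.80 ± 0.67 for Cd4, none of them called. Because Dntt was picked on this contrast, nothing is read from these counts. Without Sham replicate 4 the folds of Dntt, Rag1, Cd8a and Lck were -5.78, -4.94, -2.85 and -1.22, and 4 genes were called.

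Against Sham, the other 2 nephrectomy groups had no called member. These comparisons use the same Sham libraries as the contrast that picked the genes. In 5/6 Nx-HPi-Hp against Sham 0 of 9 tested genes were called, where 2.75% of all 15882 genes were called lower. No member had an unadjusted p under 0.05 by edgeR, while 45.5% of all genes did. The log2 fold changes ran from -1.55 ± 0.84 for Cd8a to -0.62 ± 0.68 for Cd8b1, with Dntt at -1.07 ± 0.84 and Rag1 at -1.25 ± 0.83. The 95% interval for Rag1 was -3.10 to 0.59. DESeq2 called 1 member, Rag2, and limma 0. In 5/6 Nx-LPi-Lp against Sham 0 of 10 tested genes were called, where 2.08% of all 16071 genes were called lower. Here too no member had an unadjusted p under 0.05 by edgeR, while 43.7% of all genes did. DESeq2 and limma called 0 members. The folds ran from -1.45 ± 0.88 for Cd8a to -0.77 ± 1.08 for Cd8b1, with Dntt at -1.06 ± 0.94. In both comparisons all tested members had fold changes below 0 and overlapped with Sham, while 19.9% and 22.1% of all genes lay below it in every library.

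**Figure D2:**
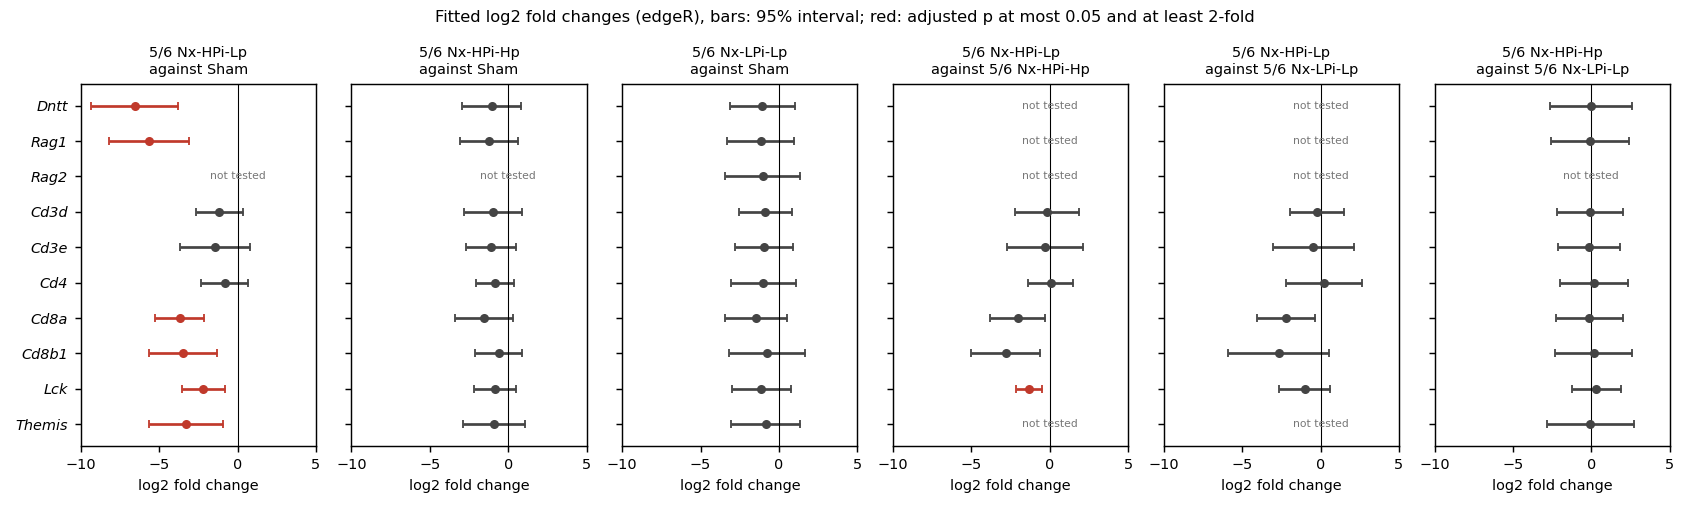
Log2 fold change (x axis) with its 95% interval for the 10 genes (rows) in the 6 comparisons (panels), with called genes in red and genes under the count filter named as not tested. The 6 red genes of the first panel belong to the contrast on which the genes were picked, and the single red gene elsewhere is Lck in 5/6 Nx-HPi-Lp against 5/6 Nx-HPi-Hp.

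The diets were compared within the nephrectomized mice. Protein was what set 5/6 Nx-HPi-Lp apart from 5/6 Nx-HPi-Hp, and their comparison shares the 5/6 Nx-HPi-Lp libraries with the contrast that picked the genes. Of 6 tested members 1 was called lower, where 3.11% of all 16198 genes were. That gene was Lck, which fell by 1.32 ± 0.37 on the log2 scale in the low-protein group (adjusted p = 0.0452, edgeR), with all 4 libraries below all 4 of the high-protein group. Leaving out any single library other than 5/6 Nx-HPi-Lp replicate 1 ended that call, with an adjusted p of 0.0524 to 0.129 in 7 such fits, so it rests on the full set of libraries. Cd8b1 also did not overlap, as did not 10.3% of all genes in that direction, and had a fold of -2.82 ± 0.99 (adjusted p = 0.0882, edgeR). Cd8a had a fold of -2.06 ± 0.78 with an adjusted p of 0.108 in the same edgeR fit. Cd3d, Cd3e and Cd4 had folds of -0.16 ± 0.92, -0.30 ± 1.08 and 0.07 ± 0.65. Dntt, Rag1, Rag2 and Themis had too few counts for the filter. By level, Dntt was below 0.32 CPM in all 4 5/6 Nx-HPi-Lp libraries and above 2 CPM in 3 of the 4 5/6 Nx-HPi-Hp libraries, with the fourth at 0.

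Phosphorus differed between 5/6 Nx-HPi-Lp and 5/6 Nx-LPi-Lp, where the same 5/6 Nx-HPi-Lp libraries are shared. Of 6 tested members 0 were called, where 3.98% of all 16253 genes were called lower. Cd8a alone had an unadjusted p under 0.05 by edgeR, as did 35.7% of all genes. DESeq2 called Cd8a, and limma called 0 members. The edgeR fold of Cd8a was -2.20 ± 0.83 (adjusted p = 0.0896), and that of Cd8b1 was -2.68 ± 1.44 (adjusted p = 0.212). The 5/6 Nx-LPi-Lp replicate 4 library was the lowest of its group, or tied, for 8 of the 10 genes. Without it 3 members were called, namely Dntt at -5.67, Rag1 at -4.71 and Cd8a at -2.57. Leaving out 5/6 Nx-HPi-Lp replicate 1 gave 1 called member, and leaving out any other single library gave 0. The 5/6 Nx-LPi-Lp replicate 4 library is singled out here by the levels of these same genes. Dntt was picked through the 5/6 Nx-HPi-Lp libraries, and the share of all genes called in that fit is not given. Nothing is read from the 3 calls. The mean Rag2 level was at least 2.60-fold lower in 5/6 Nx-HPi-Lp, against the floor. Rag2 was not tested in this comparison, the libraries of the groups overlapped, and that bound leaves out the spread between mice.

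The comparison of 5/6 Nx-HPi-Hp with 5/6 Nx-LPi-Lp has no library of the contrast that picked the genes, and both phosphorus and protein differ in it. None of the 9 tested members was called by edgeR, and neither was any of the 15850 genes tested, so the background was 0%. At an unadjusted p under 0.05 there were 1420 genes, or 8.96%, and no member. DESeq2 called 76 genes and no member, with Rag2 under an unadjusted p of 0.05, and limma called 0 genes. The folds of the members ran from -0.17 ± 0.88 for Cd3e to 0.30 ± 0.70 for Lck, and Dntt was at -0.03 ± 1.16. The 95% interval for Dntt ran from -2.62 to 2.57 and that for Lck from -1.26 to 1.86. Rag2 was the one member that was present in 1 group, with 12 and 9 counts in 2 of the 4 5/6 Nx-LPi-Lp libraries, and at 0 in all 4 of the other. The bound is at least 1.64-fold lower in 5/6 Nx-HPi-Hp.

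Other T cell genes were read from 3 lists that hold none of the 10 members. The thymocyte list held 12 genes, the T cell receptor signaling list 20 and the mature T cell list 19. In 5/6 Nx-HPi-Lp against Sham, 6 of 11 tested thymocyte genes were called lower and 0 higher, with a median log2 fold change of -1.82 over the tested genes against 0.00 over all genes, of which 7.18% were called lower. These are the libraries on which the members were picked, and a gene could pass the count filter through the Sham libraries alone. The genes called lower were Bcl11b, Myb, Tcf7, Cd27, Lef1 and Satb1, most of them transcription factors of early T cell development. Named after their values were seen, Bcl11b had a fold of -3.24 ± 0.89, Myb -2.56 ± 0.71 and Tcf7 -2.01 ± 0.51. Ptcra, the partner of the receptor beta chain in immature thymocytes, had a Sham mean of 0.368 CPM and no count in 5/6 Nx-HPi-Lp. The count of thymocyte genes called rests on Sham replicate 4, the highest for all 10 members, since 1 gene was called when it was left out. With 5/6 Nx-HPi-Lp replicate 3 left out the count was 3. In 5/6 Nx-HPi-Lp against 5/6 Nx-HPi-Hp 0 of 8 tested thymocyte genes were called, where 3.11% of all genes were called lower. Against 5/6 Nx-LPi-Lp 0 of 10 were called, where 3.98% of all genes were called lower. In 5/6 Nx-HPi-Hp against Sham 0 of 11 were called, where 2.75% of all genes were called lower. Of 15 receptor signaling genes tested in 5/6 Nx-HPi-Lp against Sham 1 was called lower, Cd6, and 1 higher, Lcp2, with a median of -0.77. Without Sham replicate 4 that count was 1 in all, and it rose to 5, of which 4 were lower, without 5/6 Nx-HPi-Lp replicate 2.

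Among its tested genes, the mature T cell list went the other way in 5/6 Nx-HPi-Lp against Sham. Of 10 tested genes 3 were called higher, Il7r and S1pr1 among them, and 0 lower, with a median log2 fold change of 1.42, where 15% of all genes were called higher. A gene could pass the count filter through the 5/6 Nx-HPi-Lp libraries alone, which favors genes that are high there. In 5/6 Nx-HPi-Hp against Sham 8 of the 19 genes were tested. The median and the count are therefore a description of the tested genes. Il7r encodes the interleukin 7 receptor and S1pr1 a receptor that guides exit from lymphoid organs, and S1pr1 is also a gene of endothelial cells. The count fell to 1 without Sham replicate 1 or 4 and rose to 9, of which 7 were higher, without 5/6 Nx-HPi-Lp replicate 1. The Il7r call against Sham was lost in 6 of the 8 fits with a library left out, the exceptions being 5/6 Nx-HPi-Lp replicates 1 and 3 (adjusted p = 0.0582 to 0.115, edgeR). Other cell types express some of these genes. Il7r was higher in 5/6 Nx-HPi-Lp than in 5/6 Nx-LPi-Lp by 2.66 ± 0.73 (adjusted p = 0.0321, edgeR), where 7.9% of all genes were called higher, and 7.15 CPM in replicate 2 was its highest value. Against 5/6 Nx-LPi-Lp 2 of 10 tested mature T cell genes were called, and 1 to 4 with a library left out. The Il7r call was lost without 5/6 Nx-HPi-Lp replicate 2 or 4 or without 5/6 Nx-LPi-Lp replicate 1, 3 or 4 (adjusted p = 0.0667 to 0.0852, edgeR).

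Lcp2, which encodes an adaptor of the receptor pathway that macrophages and other myeloid cells also use, was the only receptor signaling gene called between the nephrectomy groups. It stood at 5.93, 18.4, 12.9 and 9.61 CPM in 5/6 Nx-HPi-Lp, above the 1.87 to 3.98 CPM of 5/6 Nx-HPi-Hp and the 0.571 to 3.01 CPM of 5/6 Nx-LPi-Lp. The log2 fold changes were 1.95 ± 0.38 (adjusted p = 0.0135) and 2.93 ± 0.53 (adjusted p = 0.00718) by edgeR. In the first of these comparisons 5.01% of all genes were called higher. The summed macrophage markers were also higher, at 478 to 1752 CPM against 210 to 372 CPM and 129 to 243 CPM, and their part in the Lcp2 value was not tested.

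**Figure D3:**
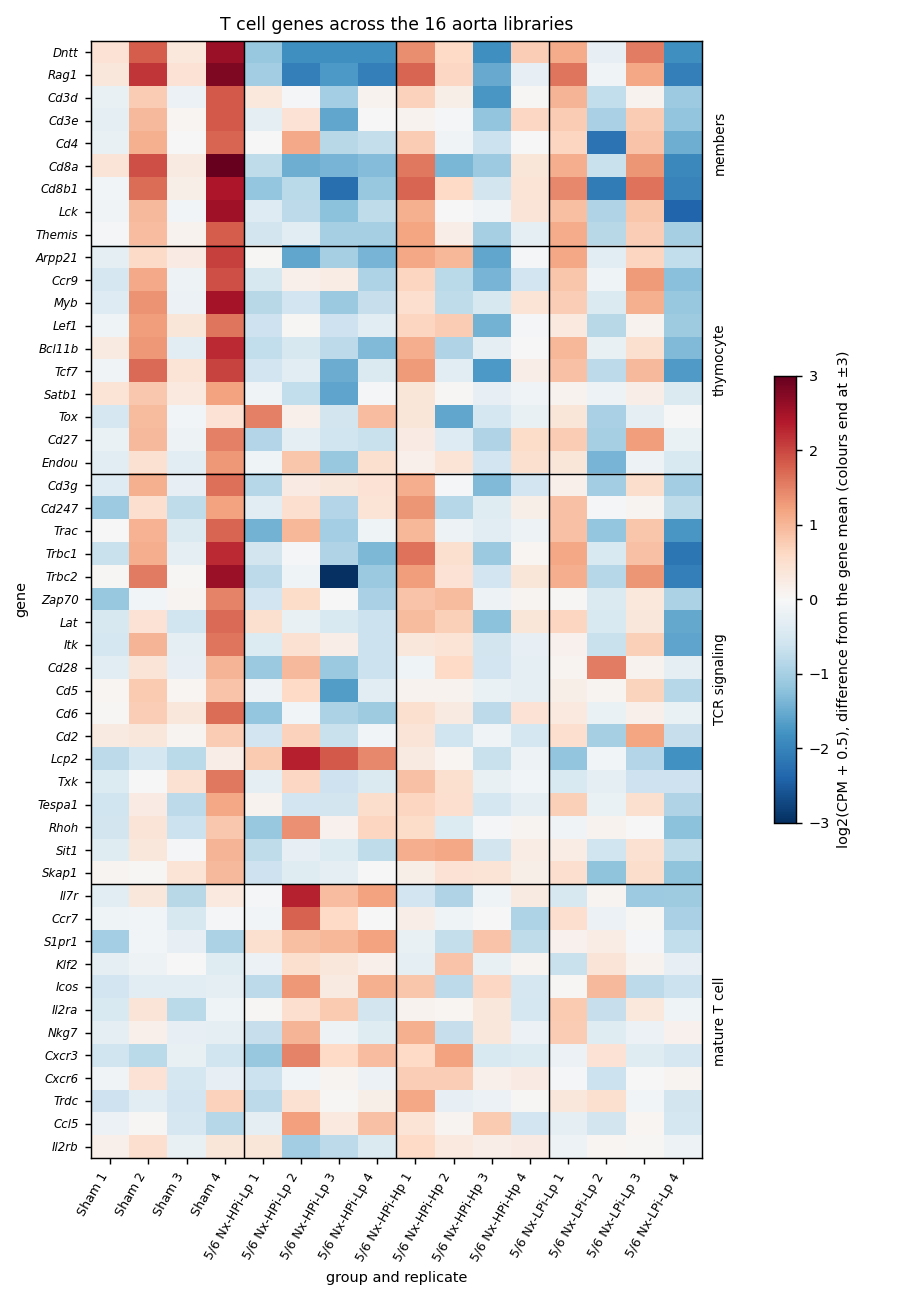
Level of 49 T cell genes with at least 100 counts in all (rows, in 4 blocks) in each of the 16 libraries (columns), as the difference of log2(CPM + 0.5) from the mean of the gene. Sham replicate 4 is the most red column for the 9 members shown and for most thymocyte genes, while Lcp2 is red in all 4 of the 5/6 Nx-HPi-Lp columns and Il7r in 3 of them.

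Dntt followed thymocyte genes across the 16 libraries. On log2(CPM + 0.5), over 18144 genes with at least 100 counts in all, the genes most like it were Arpp21 (Pearson r = 0.91), Tcf7 (0.91), Trbc2 (0.88), A930024E05Rik (0.88) and Trbc1 (0.87). Those most like Cd3e were Tcf7 (0.91), Trbc2 (0.89), Myb (0.86), Endou (0.85) and Lef1 (0.84). These are descriptions, since the 16 points share the group differences and the same libraries, and Trbc1 and Trbc2 are near-identical genes between which reads can be split. Without the 5/6 Nx-HPi-Lp group, over 12 libraries, Tcf7 still followed Dntt with r = 0.97 and Trbc2 with r = 0.94. Among the members, the 45 pairs had r of 0.61 to 0.98 with a median of 0.82, and of 0.70 to 0.98 with a median of 0.88 over the 12 libraries. The median r with Dntt was 0.82 over the thymocyte list, 0.60 over the receptor signaling list and -0.12 over the mature T cell list. Single genes of the thymocyte list ran from -0.04 to 0.91. Over the 6 smooth muscle markers, which are not T cell genes, the median was 0.68, above that of the receptor signaling list. A shared group difference can thus give an r of that size.

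Genes of immature B cells and of the thymus stroma were low, and some lay above the floor. Vpreb2 had no count in any library, and Igll1, a surrogate light chain gene of early B cells, had 2, 2, 1 and 0 counts in Sham and none elsewhere. Over the 4 early B cell genes the summed level was 0.361 to 0.809 CPM in Sham and 0.132 to 0.855 CPM in 5/6 Nx-HPi-Lp, and Vpreb3 reached 34 counts in 5/6 Nx-HPi-Lp replicate 2. The 7 B cell genes summed to 5.23 to 22.7 CPM in Sham and 13.6 to 56.1 CPM in 5/6 Nx-HPi-Lp, which overlapped. Of the 7, 2 were called higher, where 15% of all genes were. The call of 1 of them, Blk, was lost in 6 of the fits with a library left out (adjusted p = 0.0744 to 0.136, edgeR). Pax5, a transcription factor gene used from early B cells on, stood at 0.767 to 2.47 CPM in Sham and at 5.81 to 15.5 CPM in 5/6 Nx-HPi-Lp. Foxn1, which defines thymic epithelium, had no count in 15 of the 16 libraries and 20 counts in 5/6 Nx-HPi-Lp replicate 3. Psmb11, a proteasome gene of cortical thymic epithelium, had 1, 5, 0 and 11 counts in Sham, and Prss16, a protease gene of the same cells, had 1, 21, 1 and 15. For both genes the higher counts fell in Sham replicates 2 and 4, the libraries with the most Dntt, but Psmb11 also had 15 counts in 5/6 Nx-HPi-Lp replicate 3, which had no Dntt count. Tbata had 6, 26, 9 and 30 counts in Sham and 23, 16, 16 and 2 in 5/6 Nx-HPi-Lp, with r = 0.61 to Dntt over the 16 libraries. The 6 thymic epithelium genes summed to 2.21 to 5.73 CPM in Sham and 3.85 to 5.30 CPM in 5/6 Nx-HPi-Lp, most of it from Ccl25, a chemokine gene also expressed in the gut, at 2.50 and 3.62 CPM on average. Their part in the Dntt, Rag1 and Rag2 values was not tested.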

How the data were processed

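RNA-seq of aortas from 16 mice was analysed, 4 per group as GEO's labels give them. Per the methods and the submitters' processing notes, the authors aligned poly-T selected reads to mm10 with HISAT2 2.0.5 and counted them per gene with featureCounts 1.5.0-p3. The deposited counts were whole numbers. The deposited FPKM values were scaled between libraries by the authors. Library totals of 13659525 to 57276915 counts leave large counting error near 3 counts. The labels name both stranded and unstranded library kits.

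Genes were tested with edgeR 4.0.16 in R 4.3.3 (quasi-likelihood, filterByExpr, TMM, Benjamini-Hochberg adjustment over all genes tested) in fits of the 8 libraries compared, and called where the adjusted p did not exceed 0.05 and the log2 fold change was 1 or more in size. CPM, the counts per 1000000 counts of the library, used TMM-scaled totals. The default edgeR, DESeq2 and limma fits were first tested on data simulated for 5/6 Nx-HPi-Lp against Sham alone. Only genes above 1 CPM were changed there, so changes near the floor and the other alternatives were not simulated. Alternatives were RLE scaling, DESeq2 1.42.0, limma 3.58.1 on log2(FPKM + 1) or log2(FPKM + 0.1) for a mean FPKM above 0.5, other filters, a fit of all 16 libraries, a block on the replicate number, no mitochondrially encoded genes, no fold threshold, and each library left out. Besides the 10 members, the text names from each list genes called outside 5/6 Nx-HPi-Lp against Sham (up to 4), or else the most abundant gene, except 2 that are not reported here, and the 5 genes most like Dntt and like Cd3e. The members and lists were chosen with earlier results of these data known. Sequences came from RefSeq (GRCm38.p6). Figures were drawn with matplotlib 3.10.9 in Python 3.11.15. No pair of replicates agreed within sampling noise. The p-values measure the spread between mice.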

Additional observations from a re-analysis of the deposited data

Results flagged for a closer look

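Of 38 groups of 4 libraries checked for a sample far from the rest, 1 was flagged, and chance flags about 1 in 20. It was Dntt in 5/6 Nx-HPi-Lp replicate 1, at 0.315 CPM from 5 counts, while the other 3 libraries of that group had no count. The gap was the whole range of the group. Any count beside 3 libraries at 0 gives that gap, so the rate of 1 in 20 does not apply to this flag. In the same library Rag1 had 8 counts, the most of its group in CPM.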

How the results depend on the processing

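No result changed direction past the threshold under any alternative run. In 5/6 Nx-HPi-Lp against Sham the 6 members called became 2 with at least 10 counts required in every library, which left 4 members tested, 3 with limma on log2(FPKM + 1) and 2 with limma without a filter, and 4 to 6 with a library left out. In 5/6 Nx-HPi-Hp against Sham 1 member, Rag2, was called by DESeq2, without a count filter and with all 16 libraries in one fit, and 0 otherwise. In 5/6 Nx-HPi-Lp against 5/6 Nx-HPi-Hp the 1 member called became 4 with DESeq2 (Lck, Cd8a, Cd8b1 and Rag1), 2 without a count filter and 2 with all 16 libraries (Rag1 and Dntt each time), 2 with limma on log2(FPKM + 0.1), 0 with limma on log2(FPKM + 1) with or without a filter, and 0 to 3 with a library left out. Lck lost its call in 12 of 18 alternatives, with a log2 fold change of -1.50 to -0.74 and an adjusted p of 0.00711 to 0.191. In 5/6 Nx-HPi-Lp against 5/6 Nx-LPi-Lp the 0 members called became 1 with DESeq2 (Cd8a), 1 without a count filter (Dntt), 3 with all 16 libraries in one fit (Dntt, Rag1 and Rag2), and 0 to 3 with a library left out, the 3 without 5/6 Nx-LPi-Lp replicate 4. The other comparisons kept 0 under each alternative. Unless stated above, the cause was not tested.

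The replicate numbers were not taken to pair the mice, since no comparison had all 4 correlations of same-numbered libraries above 0.1. In 5/6 Nx-HPi-Hp against 5/6 Nx-LPi-Lp 3 of the 4 were, at 0.18, 0.16 and 0.54, and the other was -0.07. A replicate block left 0 members called in 5/6 Nx-HPi-Lp against 5/6 Nx-HPi-Hp and 5 in 5/6 Nx-HPi-Lp against Sham, and 0 in each other comparison. Of the other T cell genes, Lcp2 against 5/6 Nx-HPi-Hp lost its call in 2 of 18 alternatives. Il7r against 5/6 Nx-LPi-Lp lost it in 6 of 15, 5 of which left out a library.

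Members had 0 to 774 counts per library, so depth limits every fold, and Rag2 was under the count filter in 5 comparisons.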
